A study of Mus musculus with 16 samples.

Results

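The 8 genes described here build or use serine, glycine and asparagine, or direct that synthesis: Phgdh, Psat1, Psph, Srr, Shmt1, Shmt2, Asns and Atf4. They were chosen by gene symbol for their place in the pathway, with earlier results of these data known. All 8 were among the 13277 genes with deposited values. The libraries came from whole striata of 8 adult mice that carried both the RiboTag allele (B6 background) and Aldh1l1-Cre/ERT2, which gives inducible Cre activity in cells that express Aldh1l1, an astrocyte gene. RiboTag puts a haemagglutinin (HA) tag on a ribosomal protein in cells where Cre is active, so both treatment groups carried tagged astrocyte ribosomes. An adeno-associated virus for a control protein went to mice Y481, Y482, Y483, Y485 (control mice), and one for hPMCA2w/b, a human plasma membrane pump that expels calcium and suppresses its signals, to mice Y486, Y487, Y489, Y490 (PMCA mice). Each mouse gave an input library from cleared whole-tissue lysate and an IP library from RNA precipitated with the HA tag. The 4 groups (control input, control IP, PMCA input and PMCA IP) held 4 mice each, and their sex, exact age and the induction of Cre are not stated in the labels. The IP reports ribosome-bound RNA of cells with Aldh1l1-driven Cre. In the input fewer cells of a type and less RNA per cell cannot be told apart.

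Serine is made from the glycolytic intermediate 3-phosphoglycerate in consecutive steps catalysed by PHGDH, PSAT1 and PSPH. Astrocytes are known as the main site of this synthesis in the brain, and neurons depend on serine from astrocytes for D-serine, the co-agonist of NMDA receptors that serine racemase (SRR) makes. The hydroxymethyltransferases SHMT1, in the cytosol, and SHMT2, in mitochondria, turn serine into glycine and load one-carbon units onto folate. Asparagine synthetase (ASNS) makes asparagine from aspartate and glutamine. ATF4 is the transcription factor of the amino acid and integrated stress responses, and Asns, Phgdh, Psat1, Psph and Shmt2 are among its known targets.

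Library totals ran from 198462 to 686343 reads, so 1 read was worth 1.59 to 4.46 CPM (the deposited scale, reads relative to the effective library size). All 18 markers of astrocytes rose from input to IP in both treatments, and their summed level was 113000 to 119000 CPM in control IP and 99100 to 125000 CPM in PMCA IP. In input that sum was 6730 to 7120 CPM in control and 7610 to 8720 CPM in PMCA mice. The 26 tested neuronal markers (striatal projection neurons and neurons in general) were all lower in IP than in input in both treatments. The microglial marker sum was 114 to 223 CPM in control IP and 207 to 612 CPM in PMCA IP, and the sum of 3 ependymal markers was 38.8 to 72.4 and 90.3 to 183 CPM. Of the 6 microglial markers tested between the IP groups, 2 were called higher in PMCA mice and 0 lower, where 0.381% of all genes were called higher. All 6 had a positive log2 fold change (PMCA over control), with a median of 1.65. In input 8 were tested and 0 called, and all 8 were positive, with a median of 0.693.

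The promoter of Asns is shown because Asns had the lowest IP over input value of the 7 synthesis genes tested, and that of Psat1 because Psat1 had the most reads. Both are the 250 bases before the annotated start on the gene's strand, from RefSeq on GRCm38.p6, and capitals mark a match to TGATGNAA, the core of the C/EBP-ATF response element through which ATF4 is known to act. The Asns window lies at chr6:7693210-7693459 and the Psat1 window at chr19:15925060-15925309, both on the minus strand.
Asns: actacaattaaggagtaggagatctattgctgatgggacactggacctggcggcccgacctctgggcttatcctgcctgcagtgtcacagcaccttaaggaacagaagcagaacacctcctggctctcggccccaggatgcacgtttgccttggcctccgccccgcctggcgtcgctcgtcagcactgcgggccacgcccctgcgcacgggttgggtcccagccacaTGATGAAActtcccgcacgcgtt
Psat1: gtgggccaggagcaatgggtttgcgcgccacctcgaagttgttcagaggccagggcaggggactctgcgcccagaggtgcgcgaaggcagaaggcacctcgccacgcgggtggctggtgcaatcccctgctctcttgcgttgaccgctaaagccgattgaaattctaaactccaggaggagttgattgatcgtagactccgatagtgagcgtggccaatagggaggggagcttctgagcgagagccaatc
TGATGNAA was searched on both strands in the windows of all 8 genes, Psat1 having 2 of them. It was found once, in Asns, as TGATGAAA from -23 to -16 relative to the start, and 3.45% of the 32851 promoter windows in the reference table hold it. CACGTG, the E-box core, was in none of the windows of these genes and in 6.02% of all windows. The match is a description of the letters and not evidence of a bound site.

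RNA of the serine synthesis enzymes was concentrated in the astrocyte ribosome fraction, while Asns RNA was depleted from it. In control mice limma called 4 of the 7 tested genes higher in IP than in input (Phgdh, Psat1, Psph and Shmt2) and 1 lower (Asns), at a Benjamini-Hochberg adjusted p under 0.05. Of all 8091 genes tested, 27.3% were called higher and 26.1% lower in this comparison. In PMCA mice 3 of the 7 were called higher (Phgdh, Psat1 and Psph) and 1 lower (Asns), against 24.9% and 24.8% of all genes. The median log2 fold change (log2FC, IP over input) of the 7 genes was 1.32 in control and 1.03 in PMCA mice, and that of all genes tested was 0.063 and 0.0188. Shmt1 had too few reads to be tested. Over the 16 libraries a gene could be tested on the reads of 1 fraction alone. Psph and Shmt2 entered through IP, Phgdh mostly so, and Asns through input, each through the fraction where it was high. With all 13277 genes fitted, the limma adjusted p in control mice was 0.00519 for Psph, 0.0191 for Shmt2 and 0.000532 for Asns.

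Phgdh encodes 3-phosphoglycerate dehydrogenase, the first enzyme of the serine route. Its input libraries held 1, 1, 6 and 5 reads in control mice (order Y481, Y482, Y483, Y485) and 2, 3, 10 and 8 reads in PMCA mice (order Y486, Y487, Y489, Y490). Its IP libraries, in the same order, held 78, 90, 68 and 48 reads in control and 74, 59, 41 and 24 in PMCA mice. Every IP library was therefore far above every input library. As levels these were 9.42 ± 5.93 CPM in control input and 151 ± 34.95 CPM in control IP (SD, n = 4), and 16.1 ± 10.7 CPM in PMCA input and 106 ± 20.8 CPM in PMCA IP. The log2FC of IP over input was 4.10 (SE 0.44, limma adjusted p = 9.06e-09) in control and 2.87 (SE 0.44, adjusted p = 4.19e-06) in PMCA mice. Within single mice the difference of log2 CPM between IP and input ran from 3.14 to 5.39 in control and from 1.72 to 3.92 in PMCA mice, so the treatments overlapped. With so few input reads, the ratio of summed reads, scaled to library size, had wide counting intervals of 8.11 to 26.8 around 14.1-fold in control and 4.31 to 10.7 around 6.65-fold in PMCA mice. Counting intervals here are 95% and cover counting error only, since reads carried no molecular identifiers.

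Psat1, the phosphoserine aminotransferase of the second step, gave the best counted values of the 8 genes. Its input reads were 13, 16, 50 and 32 in control and 16, 36, 40 and 48 in PMCA mice. Its IP reads were 470, 352, 307 and 225 in control and 340, 296, 172 and 132 in PMCA mice. The level was 85.2 ± 31.6 CPM in control input, 98.0 ± 28.1 CPM in PMCA input, 505 ± 95.1 CPM in PMCA IP and 706 ± 103 CPM in control IP. The 2 input groups overlapped, the 2 IP groups overlapped, and no input library reached an IP library. IP was above input by a log2FC of 3.10 (SE 0.23, limma adjusted p = 2.24e-11) in control and 2.40 (SE 0.23, adjusted p = 3.21e-09) in PMCA mice, and it was higher in all 8 mice.

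Psph, the phosphatase that releases free serine, had 2, 1, 8 and 3 input reads in control mice and 4, 7, 0 and 6 in PMCA mice. Its IP reads were 37, 32, 28 and 22 in control and 15, 16, 17 and 17 in PMCA mice. IP was above input in all 8 mice, with a log2FC of 2.72 (SE 0.77, limma adjusted p = 0.00432) in control and 2.38 (SE 0.77, adjusted p = 0.0124) in PMCA mice. The PMCA value rests in part on mouse Y489, whose input library held no Psph read. Without that mouse it was 1.13 (adjusted p = 0.0842), in a range of adjusted p over all alternatives from 0.00242 to 0.0842.

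Srr, serine racemase, did not pass the test between fractions in either treatment. It had 110.5 ± 15.6 CPM in control input, 84.1 ± 19.3 CPM in control IP, 87.7 ± 16.8 CPM in PMCA input and 86.5 ± 24.3 CPM in PMCA IP. The read counts were 30, 25, 40 and 37 in control input, 34, 46, 42 and 33 in control IP, 30, 29, 29 and 31 in PMCA input and 43, 43, 27 and 37 in PMCA IP. The log2FC of IP over input was -0.41 (SE 0.24, limma adjusted p = 0.157) in control and -0.04 (SE 0.24, adjusted p = 0.911) in PMCA mice. IP was below input in 4 of 4 control mice and 2 of 4 PMCA mice. Under plain library totals, which move the median of all genes to -0.14, the control value was -0.62 with an adjusted p of 0.0323, the lowest of the alternatives, whose highest was 0.677.

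The hydroxymethyltransferases were low in all groups. Shmt2 had 4, 4, 3 and 9 reads in control input, 23, 13, 26 and 15 in control IP, 5, 6, 4 and 10 in PMCA input and 27, 28, 13 and 6 in PMCA IP. Its level was 16.7 ± 6.84 CPM in control input, 17.5 ± 3.84 CPM in PMCA input, 38.5 ± 16.8 CPM in PMCA IP and 40.7 ± 11.2 CPM in control IP. The fractions did not overlap in control mice and did in PMCA mice. The log2FC of IP over input was 1.32 (SE 0.44, limma adjusted p = 0.0129) in control and 1.03 (SE 0.44, adjusted p = 0.0535) in PMCA mice, higher in 4 of 4 and 3 of 4 mice. The control call depends on mouse Y483, without which the value was 0.84 (adjusted p = 0.156, against 0.0098 to 0.156 over all alternatives), and the PMCA value passed the threshold in 6 of 16 alternative settings. Shmt1 had 1, 0, 3 and 0 reads in control input and 2, 1, 1 and 0 in PMCA input. Its IP reads were 5, 6, 0 and 0 in control mice and 0 in all 4 PMCA mice. At 11 against 0 reads it was 3.51-fold lower in PMCA than in control IP when 3 reads over the group stand for the count of 0. That value leaves out the counting error of the 11 reads, and only 2 of the 4 control mice had any read. In a fit of all 13277 genes its log2FC (PMCA over control, IP) was -2.08 (SE 1.09, limma unadjusted p = 0.0636, adjusted p = 0.519).

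Asns, asparagine synthetase, was the 1 gene of the 7 tested that limma called lower in IP, in both treatments. Its input libraries held 8, 18, 46 and 37 reads in control and 26, 38, 31 and 39 in PMCA mice, and its IP libraries 13, 8, 6 and 3 in control and 1, 1, 0 and 1 in PMCA mice. The level was 96.7 ± 12.2 CPM in PMCA input, 82.5 ± 35.9 CPM in control input, 15.1 ± 6.14 CPM in control IP and 1.73 ± 1.34 CPM in PMCA IP. The 2 input groups overlapped, and no IP library reached an input library. The log2FC of IP over input was -2.36 (SE 0.54, limma adjusted p = 0.000607) in control and -5.62 (SE 0.54, adjusted p = 1.65e-09) in PMCA mice, and IP was lower in all 8 mice. Per mouse the log2FC ran from -3.59 to -0.69 in control and from -7.24 to -4.46 in PMCA mice, where single IP libraries held 0 or 1 read. From the reads the control ratio was 5.63-fold lower in IP (counting interval 3.73 to 8.74). The fitted PMCA value depends on the prior count because IP held 3 reads in all: over the alternatives it ran from -6.01 to -3.92, called in all of them.

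Set beside the 26 neuronal markers tested in the same fits, Asns is placed as follows. In control mice 21 of the 26 markers had a lower IP over input value than Asns, and in PMCA mice none had. The markers' median log2FC was -3.35 in control and -3.08 in PMCA mice, and the lowest marker in PMCA mice was at -4.89. Of all 8091 genes tested, 800 were below Asns in control mice and 5 in PMCA mice. The PMCA count was 10 without Y486, 10 without Y489, 1 without Y490 and 13 with a prior of 2 reads, and over all alternatives it ran from 1 to 13. Summed reads with no prior count, a check added after seeing the data, gave 21 markers below Asns in control and 0 in PMCA mice. With a prior of 2 reads the counts were 23 and 3, the only alternative in which any marker fell below Asns in PMCA mice. The neuronal markers in the IP, with a summed level of 1220 to 1350 CPM in control and 1300 to 1550 CPM in PMCA mice for projection neurons, and 1080 to 1450 and 1060 to 1170 CPM for neurons in general, give the level of neuronal RNA beside this. Markers of other cell types were also lower in IP. The 10 oligodendrocyte markers tested had a median log2FC of -3.85 in control and -3.68 in PMCA mice, 9 being called lower in each. For 5 interneuron markers the median was -4.72 and -4.07. The part of RNA from neurons or other cell types in the Asns values was not tested.

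Atf4 had 13, 15, 13 and 24 reads in control input, 60, 41, 32 and 25 in control IP, 14, 15, 9 and 18 in PMCA input and 24, 28, 26 and 14 in PMCA IP. The level was 81.7 ± 17.7 CPM in control IP, 54.9 ± 14.5 CPM in control input, 51.9 ± 12.4 CPM in PMCA IP and 40.5 ± 9.74 CPM in PMCA input. Neighbouring groups in that order overlapped. IP over input had a log2FC of 0.59 (SE 0.30, limma adjusted p = 0.0997) in control and 0.36 (SE 0.30, adjusted p = 0.338) in PMCA mice, so Atf4 RNA did not pass the test of enrichment in either treatment.

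**Figure D1:**
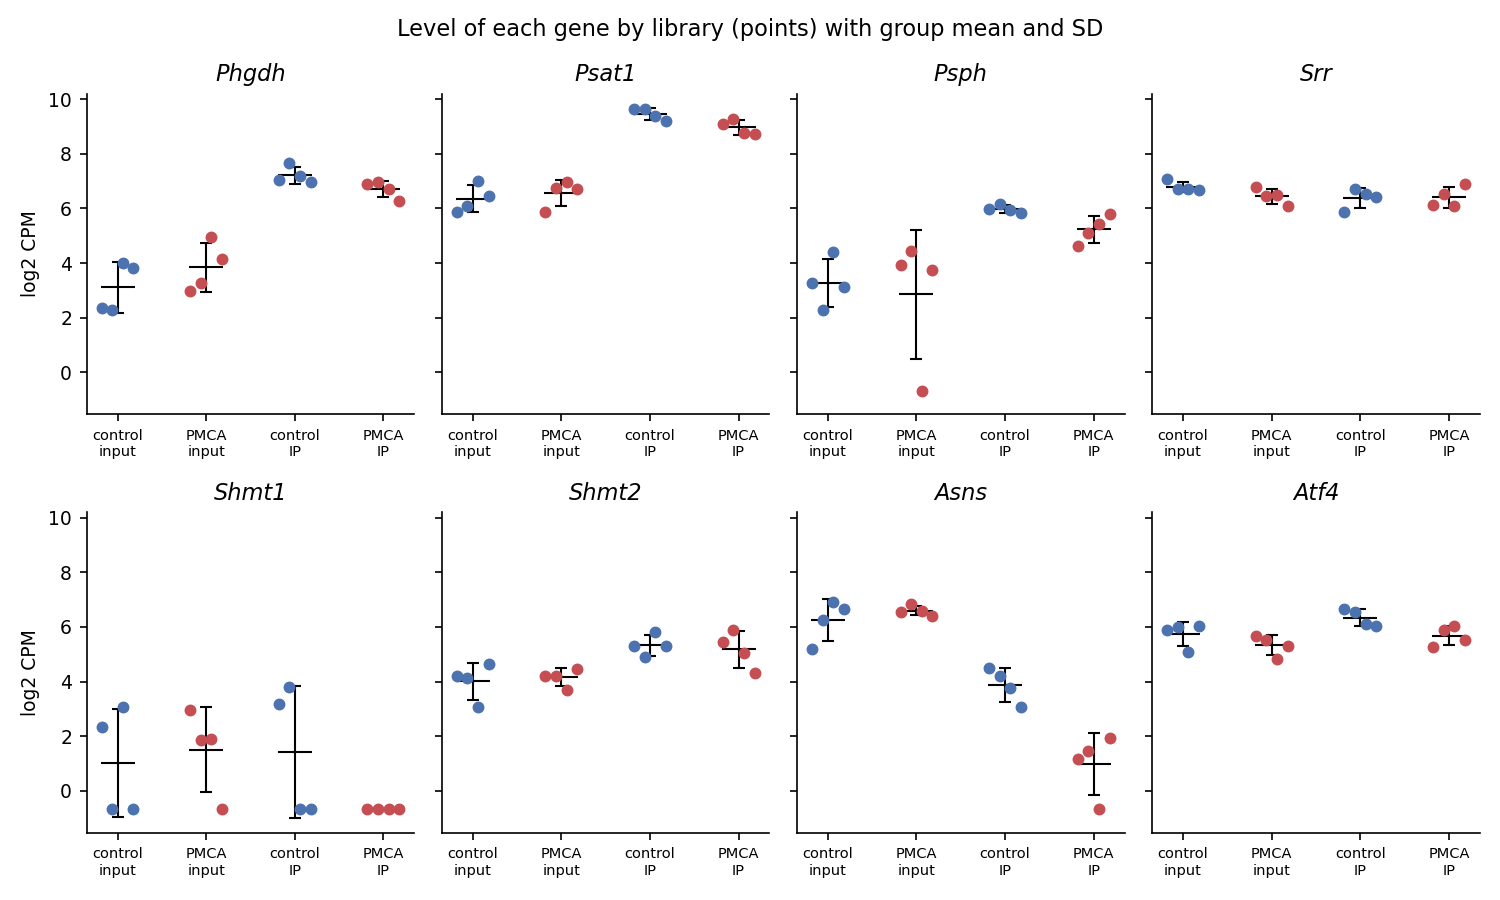
Each panel plots the log2 CPM of 1 gene in the 16 libraries (points; blue, control mice; red, PMCA mice), with the group mean (horizontal line) and SD (bar, n = 4). Phgdh, Psat1 and Psph are high in both IP groups, Srr lies between 5.86 and 7.07 in all libraries, and Asns is high in input and lowest in PMCA IP; points at -0.66 are libraries with 0 reads.

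**Figure D2:**
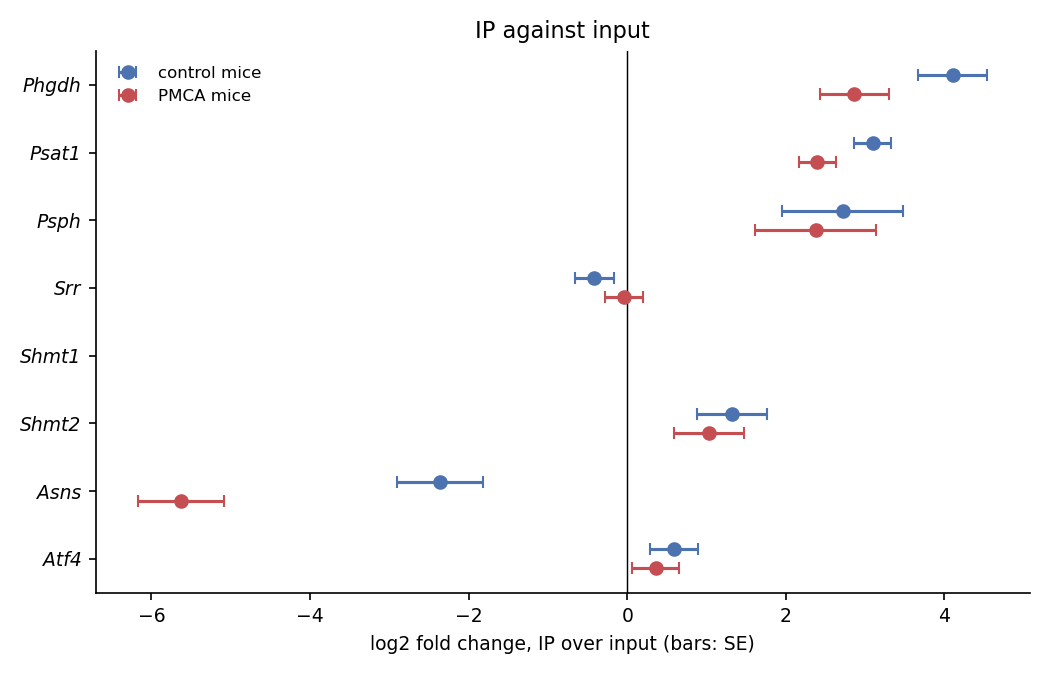
The points are log2 fold changes of IP over input from limma in control (blue) and PMCA (red) mice, with bars of 1 SE. Phgdh, Psat1, Psph and Shmt2 lie to the right of 0 and Asns to the left, at -2.36 in control and -5.62 in PMCA mice; Shmt1 had too few reads to be tested.

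**Figure D3:**
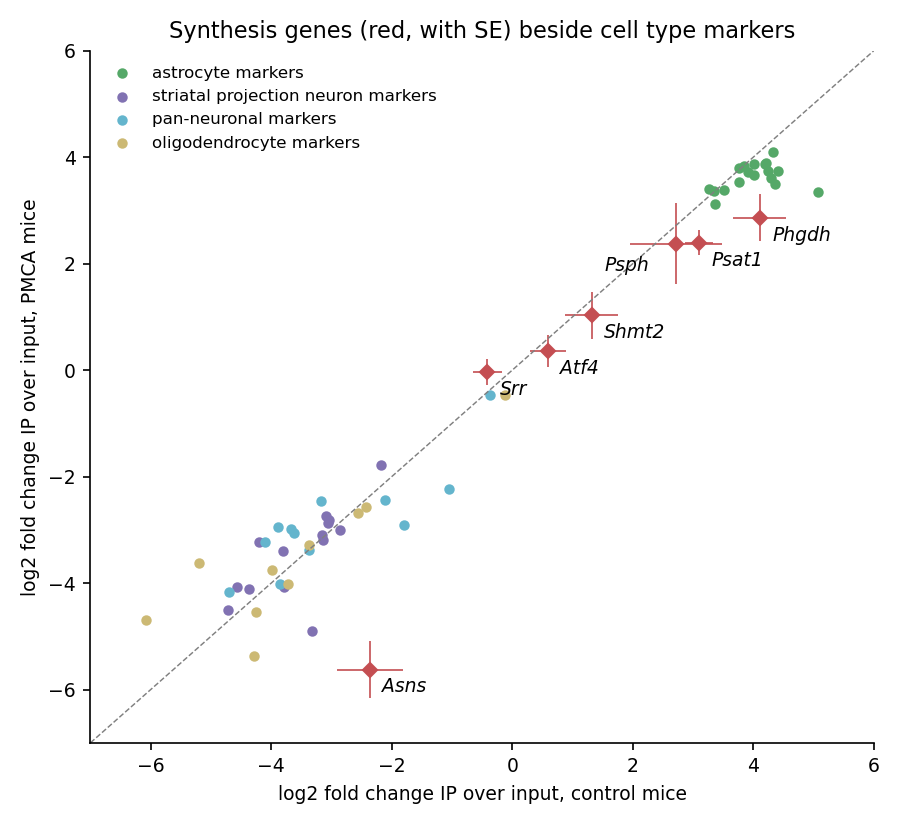
The IP over input log2 fold change in control mice (x axis) is plotted against that in PMCA mice (y axis) for 7 of the genes (red diamonds with SE) and for marker genes of 4 cell classes (circles), with the line of equality dashed. Asns lies among the neuronal markers along the x axis at -2.36 and below all of them along the y axis at -5.62 (3 of 26 markers were lower with a prior of 2 reads), while Phgdh, Psat1 and Psph lie toward the astrocyte markers.

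Between PMCA and control mice, the serine synthesis genes and Atf4 had lower means in the astrocyte fraction, and none of the 8 genes passed the adjusted threshold. Of the 6 genes tested in IP, limma called 0, against 0.381% of all 7094 genes called higher and 0.127% called lower, and voom, which weights each value by its precision, also called 0. At an unadjusted p under 0.05, 4 of the 6 were lower (Phgdh, Psat1, Psph and Atf4) and 0 higher, where 6.23% of all genes were lower. The log2FC (PMCA over control) was negative for 5 of the 6, with a median of -0.50 against -0.01 for all genes tested. The 6 genes share the same 8 libraries and are not independent observations. They were chosen with earlier results of these data known, so their counts beside all genes are a description and not a test.

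Psat1 came nearest to the threshold. Its IP level of 582 to 793 CPM in control and 426 to 624 CPM in PMCA mice gave a log2FC of -0.49 (SE 0.14, limma unadjusted p = 0.000955, adjusted p = 0.0951), and 69 of the 7094 genes had a smaller p. It passed when mouse Y485 was left out (-0.58, adjusted p = 0.0479) and when Y487 was left out (-0.60, adjusted p = 0.0341). Over all alternatives it ran from -0.60 to -0.41, with adjusted p from 0.0341 to 0.343. Only the highest PMCA library, Y487, lay above the lowest control library, Y485.

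Phgdh ran from 124.1 to 202 CPM in control IP and from 77.4 to 124.3 CPM in PMCA IP, so the groups touched at their ends. Its log2FC was -0.51 (SE 0.20, limma unadjusted p = 0.0173, adjusted p = 0.293). Psph ran from 56.9 to 71.6 CPM in control IP and from 23.9 to 54.8 CPM in PMCA IP, with no overlap, and its log2FC was -0.75 (SE 0.29, unadjusted p = 0.0156, adjusted p = 0.286). It was the 1 tested gene of the 6 that was lower without overlap, a pattern found in 3.74% of all genes. Atf4 ran from 64.6 to 101 CPM in control and from 38.2 to 65.2 CPM in PMCA mice, and its log2FC was -0.65 (SE 0.26, unadjusted p = 0.0166, adjusted p = 0.29). Srr, at 0.03 (SE 0.24, adjusted p = 0.972), and Shmt2, at -0.15 (SE 0.35, adjusted p = 0.889), had overlapping groups, and each changed sign when single mice were left out.

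Asns fell under the read filter in the IP libraries and was not among the 7094 genes. Its levels there were 7.76 to 21.9 CPM in control and 0 to 3.22 CPM in PMCA mice. Summed reads were 30 in control and 3 in PMCA IP, a 9.59-fold lower level (counting interval 2.98 to 49.1). With all 13277 genes fitted, an alternative added after seeing the data, the log2FC was -2.91 (SE 0.87, limma unadjusted p = 0.00194, adjusted p = 0.177). It stayed between -3.24 and -2.37 as each mouse was left out in turn, with adjusted p from 0.154 to 0.472. In the same IP libraries 20 neuronal markers were tested, of which 0 were higher and 1 lower (Tubb3, a neuronal tubulin), with a median log2FC of 0.04. Of the marker sums given above, the ependymal were higher in PMCA IP, and the microglial reached higher there but overlapped with control IP. The part of these cell types in these differences was not tested.

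In the input libraries the treatments were not separated for the synthesis genes tested. Of the 4 genes tested there limma called 0 and voom called 0, and 0 passed an unadjusted p under 0.05, against 0.0339% of all 5895 genes called and 3.6% at the unadjusted threshold. The log2FC (PMCA over control) was 0.21 (SE 0.30) for Psat1, -0.34 (SE 0.25) for Srr, 0.35 (SE 0.31) for Asns and -0.42 (SE 0.35) for Atf4, each with an adjusted p of 1. Phgdh, Psph, Shmt1 and Shmt2 had too few input reads to be tested.

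The difference of the PMCA effect between IP and input was tested directly over the 16 libraries. Limma called 0 of the 7 genes, and voom 0, where 0.0371% of all 8091 genes were called. At an unadjusted p under 0.05, 2 of the 7 were lower and 0 higher, where 5.28% of all genes passed in either direction. Asns differed by -3.26 on the log2 scale (SE 0.77, unadjusted p = 0.000237, adjusted p = 0.319), and 5 of the 8091 genes had a smaller p. Over the alternatives the Asns value ran from -3.67 to -1.86, with adjusted p from 0.284 to 0.976. Psat1 differed by -0.70 (SE 0.33, unadjusted p = 0.0426, adjusted p = 0.913) and Phgdh by -1.24 (SE 0.62, unadjusted p = 0.0558, adjusted p = 0.913). The depletion of Asns from IP and the enrichment of Phgdh and Psat1 in IP are therefore not shown to differ between the treatments after adjustment. Among the 18 astrocyte markers, 15 had a negative and 3 a positive difference in the same test, and 0 were called. Their median was -0.232, against -0.0323 for all genes, and their IP over input median was 4.02 in control and 3.7 in PMCA mice. The part of this shift in the values of Phgdh and Psat1 was not tested.

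**Figure D4:**
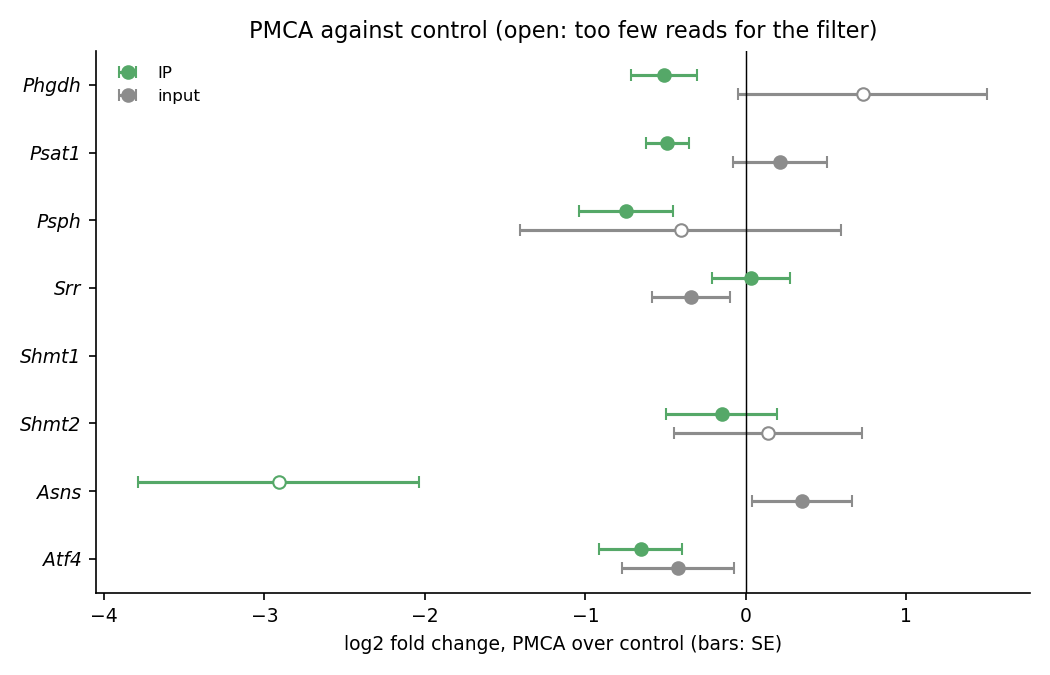
The points are log2 fold changes of PMCA over control mice from limma in the IP (green) and input (grey) libraries, with bars of 1 SE; open points are genes with too few reads for the filter, taken from a fit of all listed genes, and Shmt1 is not drawn in either fraction. Phgdh, Psat1, Psph and Atf4 lie below 0 in IP at -0.51, -0.49, -0.75 and -0.65, and none passed the adjusted threshold.

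Genes around these enzymes were followed through 9 lists of the pathway and its neighbours. Their counts between fractions stand beside 27.3% of all genes higher and 26.1% lower in control IP, and 24.9% and 24.8% in PMCA IP. In the lists, too, a gene with few input reads could be tested on its IP reads alone. The filter then largely fixed its direction as higher in IP. Among genes named below, Amt, Slc7a10, Nupr1 and Sesn2 entered through IP, and Gcsh, Sardh and Cbs mostly so. All genes passed the same filter, and its part in the counts of the lists was not tested. In the list of glycine cleavage and breakdown, 4 of 5 tested genes were higher in IP and 0 lower in both treatments. The 4 were Gldc, Amt, Sardh and Gcsh, all with few input reads. Summed input reads in control and PMCA mice were 18 and 32 for Gldc and 23 and 22 for Gcsh. Gldc, the glycine decarboxylase of that system, had a log2FC of IP over input of 4.35 (limma adjusted p = 5.16e-11) in control and 3.48 (adjusted p = 4.19e-09) in PMCA mice. Amt, its aminomethyltransferase, had 4.84 and 2.07 (SE 0.81 each, 10 and 17 input reads). The difference between treatments was not called for Amt (limma adjusted p = 0.913). Sardh, sarcosine dehydrogenase, had 4.5 and 3.99 (SE 0.93 each, 8 and 13 input reads). Between PMCA and control IP, 0 of the 5 were called. At an unadjusted p under 0.05, 2 were lower, where 6.23% of all genes were lower. These were Amt at -0.80 (adjusted p = 0.181, 170 against 87 reads) and Gldc at -0.38 (adjusted p = 0.265). Of the 7 tested folate and one-carbon genes, 5 were higher and 1 lower in control IP, and 4 higher and 0 lower in PMCA IP. They included Aldh1l1, a folate dehydrogenase and the astrocyte gene that drives Cre here (4.29 and 3.61), and Mthfd1, a cytosolic enzyme that interconverts folate one-carbon units (1.5 and 1.71). None of 6 was called between PMCA and control IP. At an unadjusted p under 0.05, 1 was higher and 0 lower. The higher gene was Aldh1l1, at 0.43 (SE 0.13, limma unadjusted p = 0.00217, adjusted p = 0.13). In input Aldh1l1 was at 1.11 (SE 0.46, limma unadjusted p = 0.0227, 31 against 67 reads) and was not called.

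Transporters of serine, glycine and neutral amino acids were 8 higher and 3 lower of 13 in control IP, and 8 higher and 4 lower in PMCA IP. Slc7a10, which carries D-serine and small neutral amino acids, had a log2FC of IP over input of 5.33 in control and 3.31 in PMCA mice. Each had an SE of 0.91, on 10 and 19 input reads, and the difference was not called (limma adjusted p = 0.913). Slc38a3, a glutamine transporter, had 4.01 and 3.04, Slc7a11, the cystine and glutamate exchanger, 4.17 and 3.59, and Sfxn5 of the sideroflexin family 3.30 and 3.17. Slc7a8, a neutral amino acid exchanger, was lower in IP at -2.38 and -1.98. None of 12 was called between PMCA and control IP. Among 11 tested routes that use serine or glycine, 3 were higher and 1 lower in control IP and 5 higher and 3 lower in PMCA IP, with Cbs, which joins serine to homocysteine, at 3.77 and 3.13. The shares higher in control IP and lower in PMCA IP are near the 27.3% and 24.8% of all genes. The share lower in control IP is below the 26.1% of all genes, and that higher in PMCA IP above the 24.9%. None of the 11 was called between PMCA and control IP. At an unadjusted p under 0.05, 1 was lower, where 6.23% of all genes were lower.

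Genes of asparagine and aspartate metabolism were split between the fractions. Of 11 tested, 4 were higher and 5 lower in control IP, and 2 higher and 4 lower in PMCA IP, where 27.3% of all genes were higher and 26.1% lower in control mice and 24.9% and 24.8% in PMCA mice. The aspartate aminotransferases Got1 (-2.45 in control, -2.33 in PMCA mice) and Got2 (-2.25, -2.66) were lower, and Asrgl1, which hydrolyses asparagine, was higher (3.37, 3.55). None of the 11 was called between PMCA and control IP, Asrgl1 being at 0.11 (limma adjusted p = 0.771). At an unadjusted p under 0.05, 2 of the 11 were lower and 0 higher, where 6.23% of all genes were lower.

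Known ATF4 targets outside the 8 genes were more often called higher than lower in IP. Of 15 tested, 9 were higher and 1 lower (Vldlr, a lipoprotein receptor) in control IP, and 8 higher and 2 lower in PMCA IP. All genes gave 27.3% higher and 26.1% lower in control IP, and 24.9% and 24.8% in PMCA IP. Sesn2, a leucine sensor, had 0 input and 60 IP reads in control mice and 5 and 40 in PMCA mice, and Nupr1, a stress-induced nuclear protein, had 8 and 118, and 6 and 99. Between PMCA and control IP, 0 of 14 were called, 10 had a negative log2FC, and the median was -0.15 against -0.01 for all genes. At an unadjusted p under 0.05, 1 of the 14 was lower and 0 higher, where 6.23% of all genes were lower. Slc7a11 was at -0.30 (limma adjusted p = 0.571) and Slc3a2, its heavy chain partner, at -0.27 (adjusted p = 0.541). The eIF2 kinases and their partners had 0 of 11 called between PMCA and control IP. Of 10 tested between fractions, 4 were higher and 1 lower in control IP and 1 higher and 1 lower in PMCA IP, both PMCA counts being below the shares of all genes. The kinase Eif2ak2 was at 3.34 and 1.97, and Impact, an inhibitor of the amino acid sensing kinase pathway, at -0.79 and -0.96.

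Of 19 cytosolic aminoacyl-tRNA synthetase genes, 1 was called higher and 0 lower between PMCA and control IP, against 0.381% and 0.127% of all genes. At an unadjusted p under 0.05, 1 was higher, the called gene, and 1 lower, near the 6.23% of all genes that were lower. Wars, the tryptophan enzyme, was higher in PMCA mice, with 66 reads in control and 168 in PMCA IP, a log2FC of 1.28 (SE 0.30) and a limma adjusted p of 0.0367. Its level was 25.9 to 44.0 CPM in control IP and 54.8 to 148 CPM in PMCA IP. The call was lost when Y481, Y482, Y483, Y486 or Y489 was left out, with adjusted p from 0.0206 to 0.195 over the 8 mice left out, and voom called it (1.31, adjusted p = 0.0477). Between fractions 4 of the 19 were higher and 0 lower in control mice, and 4 higher and 1 lower in PMCA mice, shares below the 27.3% and 24.9% of all genes called higher. Of 8 glycolytic genes that lead to 3-phosphoglycerate, 5 were higher in IP and 0 lower in both treatments, Aldoc, the brain aldolase, having 4.02 and 3.67. Between PMCA and control IP, 0 of those 8 were called. At an unadjusted p under 0.05, 2 were higher and 1 lower, where 6.23% of all genes were lower. The genes that passed it were Hk1, a hexokinase, at 0.415 (adjusted p = 0.227), Pfkl, a phosphofructokinase subunit, at 0.41 (adjusted p = 0.347), and Aldoc at -0.23 (adjusted p = 0.296).

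**Figure D5:**
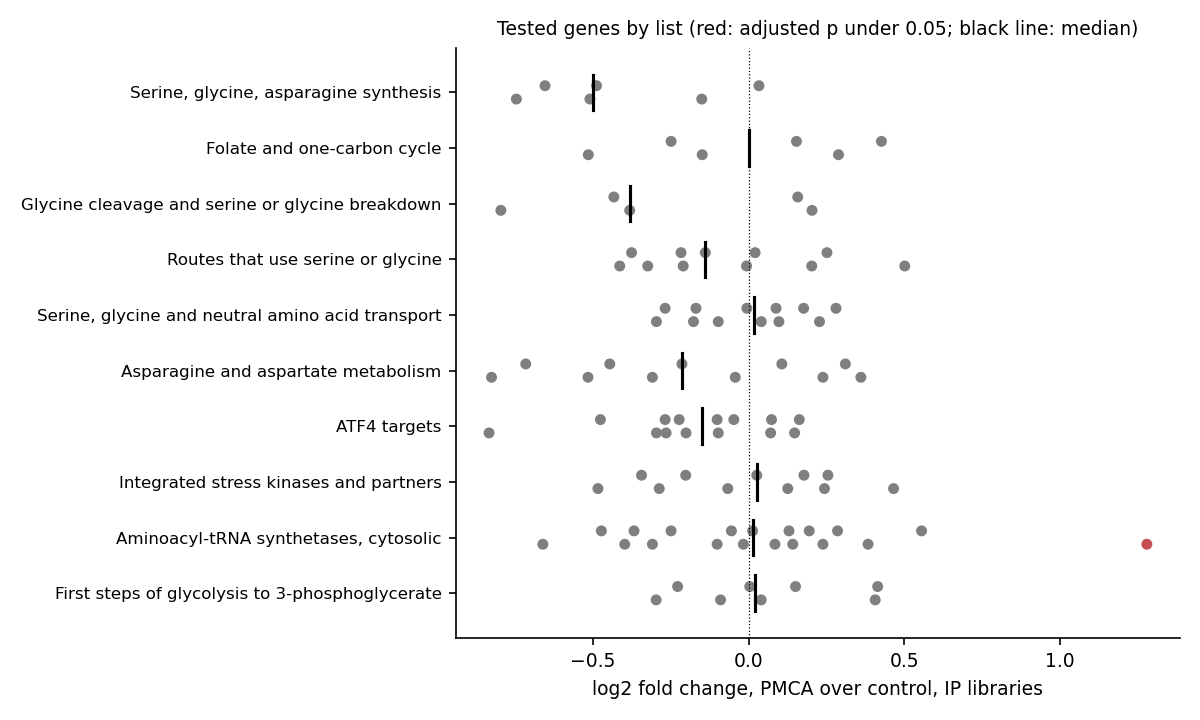
Each point is the log2 fold change of 1 tested gene between PMCA and control IP libraries, grouped by list, with a black line at the list's median. The median of the 6 tested synthesis genes is at -0.50 and that of the ATF4 targets at -0.15, and the red point is Wars at 1.28, the only gene of these lists called.

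The genes most like Phgdh in level over the 16 libraries, out of 4284 with enough reads, were Tsc22d4 (Pearson r = 0.987), Cpne3 (0.984) and Laptm4a (0.978). Those most like Psat1 were Rcn2 (0.988), Gna13 (0.987) and Cst3 (0.987). Cst3 encodes cystatin C, a secreted protease inhibitor, and Gna13 a G protein alpha subunit. For Srr the values were lower, at 0.759 for Atf7ip, 0.756 for Rn45s and 0.753 for Pgrmc2, and likewise for Atf4, with 0.758 for Mff and 0.748 for Eif3c among the most alike. These correlations are descriptions: the 16 points share the split between input and IP. Psph, Shmt1, Shmt2 and Asns had a mean under 20 reads and were not compared.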

How the data were processed

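Total RNA of 16 libraries from 8 mice was prepared with a stranded kit after depletion of ribosomal RNA, per the labels' protocols. STAR, HTSeq, edgeR, limma and genome build mm10 are named, without versions, in the submitters' processing notes. The labels state neither the strand setting nor the handling of multiply mapped reads. Deposited by the authors were log2 CPM values per gene and library, for 13277 genes.

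Whole reads were recovered from these values, and 100% of them came out whole within 0.01 reads. The deposited log2 unit was kept for testing with limma 3.58.1 in R 4.3.3 (variance trend, robust moderation with statmod 1.5.0). Testing required 15 reads in all and, in at least 4 libraries, a CPM worth 10 reads in a library of median size. Treatment was compared in the 8 libraries of a fraction, the other comparisons in all 16, with Benjamini-Hochberg adjustment over all genes tested. Log2 fold changes include the deposited prior count and are uncertain for genes with few reads. Within a fraction, p-values measure the spread between mice. Over the 16 libraries they rest on the pooled spread of libraries within the 4 groups, the 2 libraries of a mouse being fitted as independent.

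Both libraries of a mouse are paired by the labels, and deviations of paired libraries from their group means correlated with r from -0.036 to 0.15. Alternatives were the filter, prior count, scaling, voom, robust moderation, the mouse as a block, and leaving out each mouse. Listed genes outside the 8 were named when called, at most 4 in each direction, or otherwise the 2 of highest level. Amt, Hk1, Pfkl and Tubb3 are named in PMCA against control IP outside that rule, after their values were seen. The 8 genes and all lists were chosen with earlier results of these data known. Levels of different genes were not compared, since no transcript lengths were used here. 1 gene of like pattern is not reported here.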

Additional observations from a re-analysis of the deposited data

Results flagged for a closer look

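Of the 32 groups of 4 libraries examined (8 genes in 4 groups), 2 held a library far from the other 3 of its group, and chance alone marks about 1 in 20 such groups. Psph was at -0.66 log2 CPM in the input library of PMCA mouse Y489, which held 0 reads, against 4, 7 and 6 reads in the other PMCA input libraries. Srr was at 7.07 log2 CPM in the input library of control mouse Y481, against 6.66 to 6.72 in the other control input libraries.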

How the results depend on the processing

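Direction and side of the threshold were kept for the 8 genes in 83 of 90 recomputed values for PMCA against control in IP, 59 of 60 in input, 110 of 112 for IP against input in control mice, 103 of 112 in PMCA mice and 106 of 112 for the difference of effects. With the mouse as a replicate block, Phgdh kept a log2 fold change of IP over input of 4.10 (limma adjusted p = 2.93e-08) in control mice, and the block changed no call of the 8 genes. Plain library totals moved the median of all genes in IP against input to -0.14 in control and -0.24 in PMCA mice and brought the genes called lower in control mice to 2, with Srr. In PMCA against control IP, all genes called lower numbered 15 with plain totals and 4 with voom against 9, and those called higher 41 without robust moderation against 27. In input, 1 gene was called higher with median-of-ratios scaling and 1 with voom, against 2, and 1 lower without robust moderation, against 0. Leaving out each mouse gave 11 to 36 genes called higher and 2 to 18 lower in IP, 0 to 9 higher and 0 to 1 lower in input, and 0 to 1 of the 8 genes lower in IP, the 1 being Psat1. Signs changed with a mouse left out for Srr (-0.14 to 0.14) and Shmt2 (-0.39 to 0.14) in PMCA against control IP, for Asns in input (-0.0057 to 0.57), for Srr in IP against input of PMCA mice (-0.33 to 0.17), and in the difference of effects for Psph (-1.58 to 0.23), Shmt2 (-0.51 to 0.19) and Atf4 (-0.519 to 0.0188). The causes were not tested. Depth limits Shmt1, Asns in IP, and Phgdh, Psph and Shmt2 in input, where single libraries held 0 to 13 reads.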
